A study of Mus musculus with 12 samples.

Results

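The genes described here carry the family names of the motile cilium. They are the protein-coding genes of the GENCODE mouse annotation whose symbol begins with Cfap (cilia and flagella associated protein), Dnah (dynein axonemal heavy chain), Rsph (radial spoke head) or Spag (sperm associated antigen) followed by a digit. The rule found 66 of 21938 genes, of which 31 were Cfap, 15 Dnah, 8 Rsph and 12 Spag genes. Accessible chromatin at their promoters was read from 12 ATAC-seq libraries, an assay in which a transposase cuts open DNA. The cells were 2 mouse tumour lines, the melanoma B16F10 and the mammary carcinoma 4T1. Each was left untreated or exposed for 48 h to decitabine (DAC), a cytidine analogue that traps DNA methyltransferases, with 3 libraries in each of the 4 groups. The dose was 0.1 µM for B16F10 and 1 µM for 4T1. Dead cells had been taken out before transposition, so the libraries describe surviving cells. Dose and line change together, so the response of the lines to an equal dose cannot be compared. Nothing in the labels says that replicates were separate cultures, so their spread may be technical. The reference genome is that of the C57BL/6 strain, from which B16F10 also derives, whereas 4T1 derives from BALB/c.

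Motile cilia and sperm tails beat because axonemal dyneins slide the outer microtubule doublets past each other. Outer and inner dynein arms are built around the Dnah heavy chains, the radial spokes and the central apparatus coordinate them, and many Cfap proteins line or link the doublets. In the cells that make motile cilia the programme is run by the regulators geminin coiled-coil protein 1 (Gmnc), multicilin (Mcidas), Foxj1 and the RFX factors, while intraflagellar transport also serves the primary cilium that most cells carry. Neither line is a multiciliated cell type. Of 8 markers of that cell type, 2 had a promoter peak in each B16F10 library and 3 to 4 in each 4T1 library, whereas each B16F10 library had 7 of 8 melanocyte markers and each 4T1 library 9 of 10 mammary epithelial markers. The name of the group also covers genes that are not axonemal. Spag5 (astrin) is a spindle protein, Spag4 lies in the nuclear envelope, Spag9 is a kinase scaffold, and Spag11a and Spag11b are defensin-like proteins of the epididymis.

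A gene was called in a library when a peak of that library overlapped the 1000 bp on either side of the gene's annotated 5′ end. It was called in 1 arm alone when 3 of 3 libraries of that arm and 0 of 3 of the other arm of the same line had such a peak. The sequences that the results turn on are shown first, 5′ to 3′ on the strand of the gene, from the RefSeq copy of GRCm38.p6 (mm10). In the first pair the capitals mark CpG, the dinucleotide that DNA methyltransferases modify. They are the 150 bases before the 5′ ends of Cfap99, the gene called in treated 4T1 alone, and of Cfap157, the gene called in untreated but not in treated 4T1. The former is the whole interval between the 5′ ends of Cfap99 and of Zfyve28 on the opposite strand and held 19 CpG, and the latter held 1.
Cfap99 (chr5:34288450-34288599, plus strand): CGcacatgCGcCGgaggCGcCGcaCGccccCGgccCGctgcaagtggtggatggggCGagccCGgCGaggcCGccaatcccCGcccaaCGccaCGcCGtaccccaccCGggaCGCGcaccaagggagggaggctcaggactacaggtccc
Cfap157 (chr2:32784429-32784578, minus strand): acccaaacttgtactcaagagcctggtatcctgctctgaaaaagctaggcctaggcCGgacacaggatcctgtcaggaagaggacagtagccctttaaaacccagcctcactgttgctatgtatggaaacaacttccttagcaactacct

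In the next set the capitals mark GTTGCC or its reverse complement, the core of the motif that RFX factors bind. Cfap97d2 was called in untreated B16F10 alone, Cfap58 in 4T1 alone and Cfap74 in B16F10 alone. Each printed stretch lies before the 5′ end of its gene, except that of Cfap74, which runs 25 bases into its first exon.
Cfap97d2 (chr8:13705825-13705888, plus strand): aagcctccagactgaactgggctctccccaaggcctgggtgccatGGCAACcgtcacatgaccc
Cfap58 (chr19:47937608-47937674, plus strand): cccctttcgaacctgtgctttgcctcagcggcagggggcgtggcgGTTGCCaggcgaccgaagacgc
Cfap74 (chr4:155409158-155409214, plus strand): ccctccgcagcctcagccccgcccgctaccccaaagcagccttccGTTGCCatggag

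In the sets that follow the capitals mark only GTTGC facing GCAAC with 1 to 4 bases between them, and a further gttgcc in the Cfap54 stretch is left in lower case. The arrangement stood in 4 further promoters that had a peak in at least 1 library.
Dnah6 (chr6:73221652-73221712, minus strand): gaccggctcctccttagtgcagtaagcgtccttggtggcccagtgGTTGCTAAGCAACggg
Cfap44 (chr16:44394727-44394795, plus strand): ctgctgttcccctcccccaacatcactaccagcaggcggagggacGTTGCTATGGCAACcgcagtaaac
Cfap54 (chr10:93081619-93081695, minus strand): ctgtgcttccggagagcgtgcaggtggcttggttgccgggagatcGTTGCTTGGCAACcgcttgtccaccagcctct
Cfap97d1 (chr11:101984175-101984278, plus strand): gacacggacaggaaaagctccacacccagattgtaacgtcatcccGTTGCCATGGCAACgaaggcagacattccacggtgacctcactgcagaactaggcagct

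The last set compares the 3 copies of Dnah7, which lie on chromosome 1. The Dnah7b stretch lies under the peak summits of that gene, inside an annotated exon and with 26 of its 90 bases in coding sequence. The Dnah7a and Dnah7c stretches aligned to it lie outside their genes and before the 5′ ends.
Dnah7b (chr1:46066799-46066888, plus strand): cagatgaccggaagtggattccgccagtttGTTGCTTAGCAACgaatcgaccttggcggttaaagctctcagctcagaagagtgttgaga
Dnah7a (chr1:53706789-53706871, minus strand): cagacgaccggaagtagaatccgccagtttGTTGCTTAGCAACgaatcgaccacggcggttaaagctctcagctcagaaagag
Dnah7c (chr1:46425419-46425511, plus strand): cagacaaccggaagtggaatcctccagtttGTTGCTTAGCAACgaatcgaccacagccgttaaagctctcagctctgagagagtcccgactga

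Promoters of the 66 genes had a peak less often than those of protein-coding genes in general in each of the 12 libraries, by 0.120 percentage points in untreated 4T1 replicate 1 and by up to 10.6 in treated B16F10 replicate 1. Untreated B16F10 libraries had a peak at 30, 27 and 27 of the 66 promoters, a mean of 28 ± 1.73 (SD, n = 3), and treated ones at 26, 28 and 29, a mean of 27.7 ± 1.53. The arms of B16F10 overlapped. In 4T1 the counts were 37, 35 and 35 without DAC (35.7 ± 1.15) and 40, 40 and 37 with it (39 ± 1.73), so the groups met at 37. As a share of the 66 genes the means were 42.4% and 41.9% in B16F10 and 54.0% and 59.1% in 4T1. Over all 21938 genes, which include the 66, the shares were 49.6 ± 0.189% and 50.3 ± 0.433% in B16F10 and 56.4 ± 0.224% and 61.6 ± 0.625% in 4T1 (SD, n = 3). The treated mean of 4T1 lay above the untreated one in both sets of genes, but for the 66 it lay below it, at 30 against 32, when only peaks with fold enrichment of at least 5 were kept, and at 33.3 against 35.7 with equal numbers of peaks within the line. A promoter open in some of the cells and one that is weakly open in all of them cannot be told apart in libraries made from many cells.

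The number of peaks moved with these counts. The lists held 49622 to 53316 peaks on the 21 assembled chromosomes in untreated and 54032 to 58468 in treated B16F10, against 89780 to 94229 in untreated and 108083 to 118603 in treated 4T1. Read totals were not used here, so the depth behind these lists is not known. When each library was reduced to its 49622 peaks of smallest q, 26 to 29 of the 66 promoters were called in every library of either line, and 49.4% to 51.6% of all genes. The line, the dose and the number of peaks cannot be told apart in this design. Of the lists, that of B16F10 DAC replicate 2 names the assembled chromosomes only, whereas the others name 85 to 118 sequences.

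**Figure D1:**
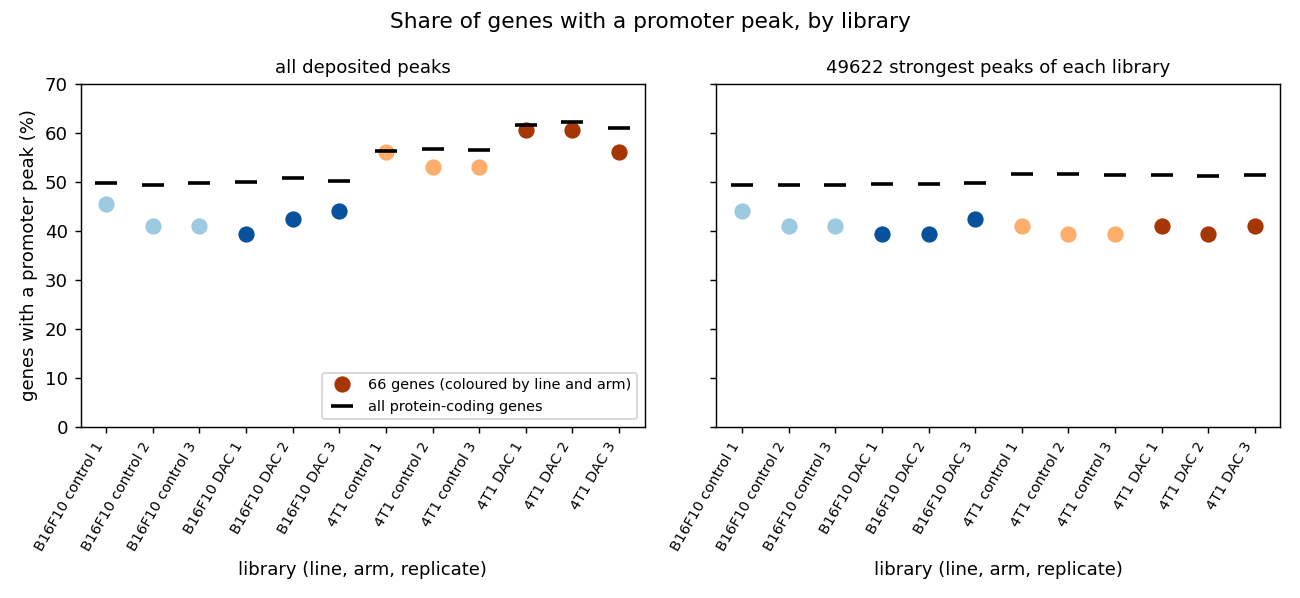
Share of genes with a promoter peak (%) in each of the 12 libraries, for the 66 genes (circles, coloured by line and arm) and for all protein-coding genes (black bars), with all deposited peaks on the left and the same number of peaks in each library on the right. The 66 genes lie at 39.4% to 60.6% on the left, and at 39.4% to 43.9% on the right, below the bar of all genes in every library there.

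By library, 22 of the 66 genes (33.3%) were called in all 12, 17 (25.8%) in none and 27 (40.9%) in some but not all. Over all genes the shares were 45.8%, 32.3% and 21.9%. By share, the group thus held fewer promoters called in every library, fewer called in none, and more called in some. The share called in none lay nearest to that of all genes, and none of these differences was tested. Counting a peak at any annotated transcript start of a gene, 24 (36.4%) were called in all libraries and 15 (22.7%) in none, against 50.3% and 27.3% of all genes. The peaks called also stood lower within their lists. The median promoter peak of the group stood at percentile 78.1 to 82.4 of its library's −log10 q values, and that of all called promoters at 85.9 to 89.5. Their summits lay where those of other promoters lie, with 69.8% within 250 bp of the 5′ end, against 72.0% over all genes.

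**Figure D2:**
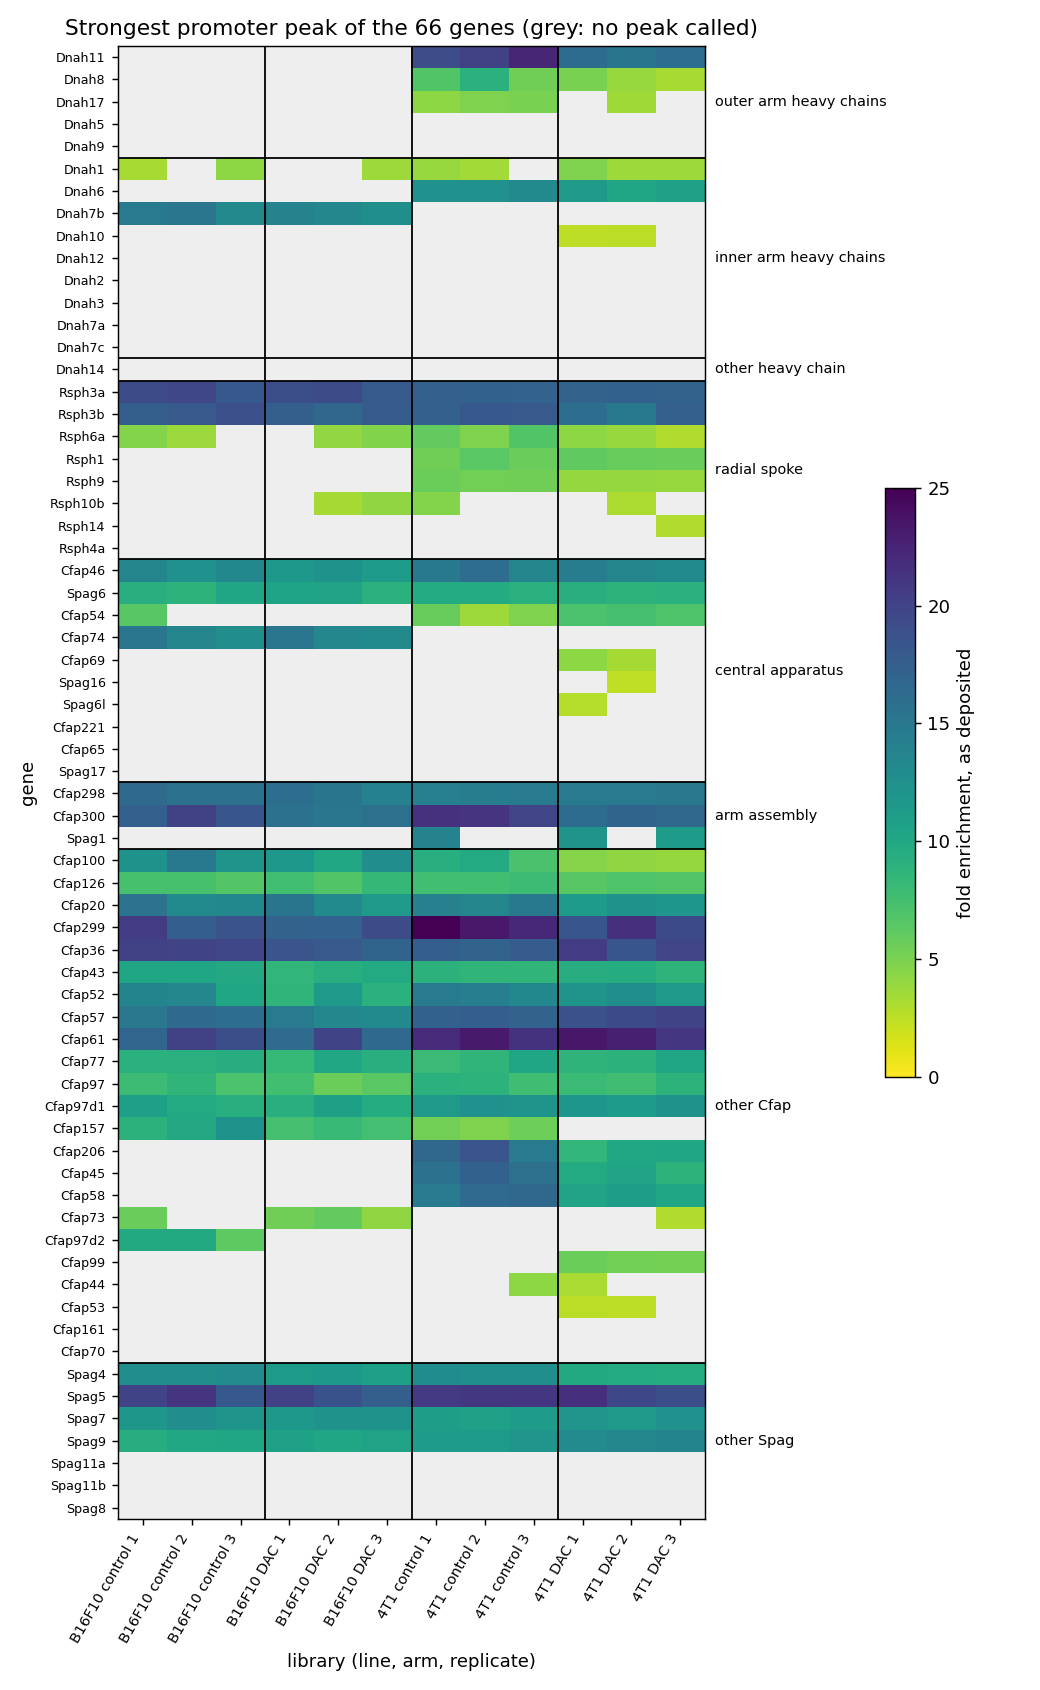
Fold enrichment of the strongest promoter peak of each of the 66 genes (rows, grouped by role) in each library (columns), as deposited and relative to the background of that library. Peaks were called in 391 pairs of gene and library, and grey marks the pairs without one.

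Dynein heavy chains, the motors of the axoneme, were the least often called of the 4 families. None of the 15 Dnah genes was called in all 12 libraries and 8 were called in none, against 15 and 4 of 31 Cfap genes, 2 and 1 of 8 Rsph genes and 5 and 4 of 12 Spag genes. A B16F10 library called 1 to 2 of them, an untreated 4T1 library 4 to 5 and a treated one 4 to 6. Of the 5 outer arm heavy chains, Dnah5 and Dnah9, which pair in the cilia of airway cells, were called in no library, and Dnah8, Dnah11 and Dnah17 in 4T1 libraries alone. Of 9 inner arm heavy chains, Dnah2, Dnah3, Dnah7a, Dnah7c and Dnah12 were called in none, and Dnah1, Dnah6, Dnah7b and Dnah10 in some. Dnah14 was not called at its 5′ end, although another of its 9 annotated starts was called in 3 of 3 libraries of each 4T1 arm. In B16F10 another start was called in 2 untreated libraries and 1 treated library.

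Dnah11, an outer arm heavy chain whose loss in the mouse randomises left-right asymmetry, had the strongest peak of the family. Its fold enrichment was 19.1, 20.1 and 22.3 in untreated and 16.1, 15.3 and 15.9 in treated 4T1, with no peak in the 6 B16F10 libraries. The 5′ end lies on chromosome 12 at 118199043, and the summits lay in the untranslated part of an exon at that end. Dnah6, an inner arm chain, had peaks of 12.4, 12.4 and 13.1 without DAC and 11.6, 10.3 and 10.7 with it. Within the window it was again called in 4T1 alone. In the 6 B16F10 libraries, however, a peak with fold enrichment of 12.4 to 17.7 lay 1231 to 1246 bp from the 5′ end, just outside the window. With 2000 bp on either side Dnah6 was no longer called in 4T1 alone. Dnah8, the outer arm chain of sperm, was weaker at 6.82, 9.03 and 5.39 and at 5.06, 3.84 and 3.29. Most of its summits lay just beyond the upstream edge of the window. Dnah17, its partner in sperm tails, had 4.29, 4.79 and 4.99 in untreated 4T1 and a peak of 3.60 in replicate 2 alone among treated libraries. Fold enrichment is a ratio to the background of the same library, so these values describe each list and no change is read from them.

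Dnah7b was the reverse case. This inner arm heavy chain had peaks of 14.6, 15.2 and 13.2 in untreated and 13.9, 13.4 and 12.6 in treated B16F10 and no peak in the 6 libraries of 4T1. Its summits lay 548 to 568 bp downstream of the annotated 5′ end, under the stretch shown above. Dnah7a and Dnah7c were called in no library. The 300 bases around the Dnah7b summit aligned to the start of Dnah7a with 90.3% identity and to that of Dnah7c with 86.3%, and all 3 stretches hold GTTGCTTAGCAAC. Reads that fit several copies equally well may be lost or placed at any of them, and their treatment by the authors is not known here. The calls of Rsph3a and Rsph3b, whose starts were 98.7% identical over 300 bases, are therefore uncertain between copies. The Dnah7 copies differ at more bases. Whether reads can be told apart there was not examined, so the Dnah7b calls are held to be uncertain too.

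Of the 8 radial spoke genes, 2 were called in all 12 libraries and 1 in none. Rsph3a and Rsph3b, the copies of a stalk protein gene, were the 2 called in all, with fold enrichment of 17.01 to 19.7 and 14.9 to 18.9. Rsph1 and Rsph9, spoke head genes mutated in human ciliary dyskinesia, were called in 6 of 6 libraries of 4T1 and 0 of 6 of B16F10. Rsph1 had 5.46, 6.40 and 5.68 without DAC and 6.09, 5.77 and 5.70 with it. Rsph9 had 5.65, 5.34 and 5.39 without and 3.92, 4.00 and 3.82 with it. Rsph4a, the third ciliary head gene, was called in no library. Rsph6a, its sperm counterpart, was called in 10 libraries, Rsph10b in 4 and Rsph14 in 1.

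Of 10 central apparatus genes, Cfap46 and Spag6 were called in all 12 libraries and Cfap65, Cfap221 and Spag17 in none. Cfap54 was called at its 5′ end in 6 of 6 libraries of 4T1 and 1 of B16F10, and at some annotated start in all 12. At their 5′ ends Cfap69, Spag16 and Spag6l were called in treated 4T1 libraries alone, in 2, 1 and 1 of 3. Cfap74 was called in B16F10 alone, with fold enrichment of 15.2, 13.6 and 12.7 without and 15.2, 13.4 and 13 with DAC. Another annotated start of Cfap74 had a peak in all 6 libraries of 4T1, so the lines differed at this start and not at every start of the gene. Of the 3 genes for assembly of dynein arms in the cytoplasm, Cfap298 and Cfap300 were called in all 12 libraries. Spag1 was called at its 5′ end in 3 libraries of 4T1 only through the edge of a peak with its summit 1563 bp downstream, and some annotated start of it was called in 11 of 12 libraries.

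Among the other Cfap genes, 12 of 23 were called in every library. Among all genes of the group called in all 12 libraries, the 5 highest medians of fold enrichment were those of Cfap61 at 20.6, Spag5 at 20.1, Cfap299 at 19.3, Cfap36 at 18.4 and Rsph3a at 17.6. Cfap61 belongs to the complex at the base of the spokes, and its 5′ end lies 230 bp from that of Crnkl1, a splicing factor gene on the opposite strand that was also called in all 12 libraries. In all, 7 of the 66 genes (10.6%) had the 5′ end of another protein-coding gene within the window, against 12.6% of all genes, and 5 of the 7 (71.4%) were called in all 12 libraries (Cfap43, Cfap52, Cfap57, Cfap61 and Cfap97), against 84.9% of all genes with such a neighbour. At these a peak cannot be assigned to one of the genes. Cfap161 and Cfap70 were called in none, but Cfap70 had a peak at another start in the 6 libraries of B16F10. All 4 of Spag4, Spag5, Spag7 and Spag9 were called in all 12 libraries, and Spag8, Spag11a and Spag11b in none.

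The number of genes called in 1 line alone was larger for 4T1. Untreated 4T1 alone was called at 9 of the 66 promoters (8.03% of all genes were) and untreated B16F10 alone at 3 (1.94% of all genes). Among treated libraries the counts were 10 for 4T1 alone (10.7% of all genes) and 3 for B16F10 alone (1.34%). With both arms together, 8 genes were called in 6 of 6 libraries of 4T1 and 0 of 6 of B16F10 (6.44% of all genes), namely Cfap45, Cfap58, Cfap206, Dnah6, Dnah8, Dnah11, Rsph1 and Rsph9. The reverse held for 2, Cfap74 and Dnah7b (0.985% of all genes). With 2000 bp on either side of the 5′ end Dnah6 was no longer called in 4T1 alone in either arm. With the peak summit required inside the window, Cfap45 and Dnah8 were no longer so called in either arm. With equal numbers of peaks in all 12 libraries the lines were even, at 5 against 5 of the 66 genes in either arm, where 5.54% (4T1) and 3.13% (B16F10) of all genes were so called without DAC and 5.24% and 3.19% with it. The 5 of 4T1 were then Cfap45, Cfap58, Cfap206, Dnah6 and Dnah11 in both arms, and Dnah8, Rsph1 and Rsph9, the 3 with the weakest peaks, dropped out. The 5 of B16F10 were Cfap74, Cfap100, Cfap157 and Dnah7b in both arms, with Cfap97d2 in untreated and Cfap73 in treated libraries.

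Of the Cfap genes open in 4T1 alone, Cfap206 is needed for the beat of cilia and sperm, Cfap45 lies inside the doublet microtubules, and Cfap58 is needed to build the sperm tail. Cfap206 had fold enrichment of 16.6, 18.4 and 14.6 in untreated and 8.42, 10.1 and 10.2 in treated 4T1. Cfap45 had 15.7, 17.3 and 15.8 and then 9.76, 10.4 and 8.81, with its summits at -978 to -1048 bp from the 5′ end, so that only the near part of the peak lay in the window. Cfap58 had 14.8, 16.3 and 16.6 and then 10.4, 11.1 and 10.3, with summits at -3 to -5 bp, next to the GTTGCC shown above. All 3 were strong peaks in every 4T1 library and had none in the 6 of B16F10. The treated values lay below the untreated ones in each gene, on ratios that are set by each library's own background. Of the genes called in every 4T1 library, the same held for 15 of 32 in the group (46.9%) and for 34.5% of all 11925. Every treated value lay above every untreated one in 5 of the 32 (15.6%) and in 20.3% of the 11925.

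**Figure D3:**
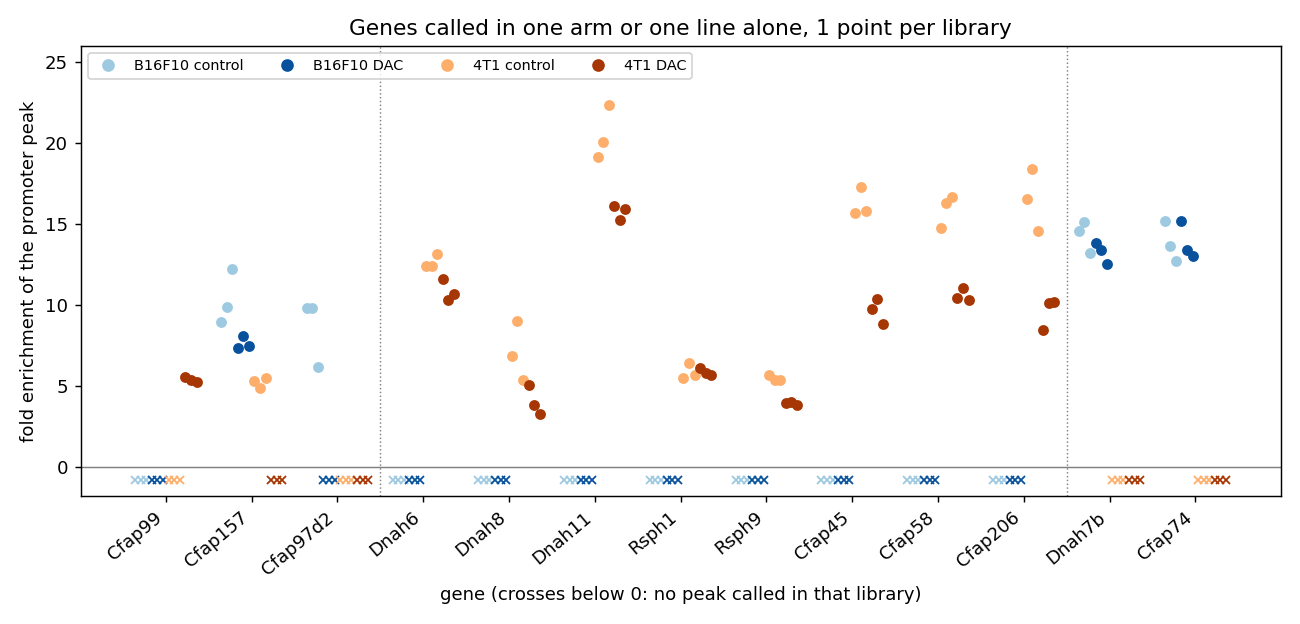
Fold enrichment of the promoter peak (vertical axis, as deposited) for the genes called in 1 arm or 1 line alone, with 1 circle per library coloured by line and arm and a cross where no peak was called. The 4T1 group runs from 3.29 for Dnah8 to 22.3 for Dnah11, and Cfap99 has circles at 5.24 to 5.57 in treated 4T1 and crosses in the other 9 libraries.

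Calls in 1 arm alone are given beside the share over all genes, and no difference from that share is read from counts of 0 or 1. In 4T1, 1 of the 66 genes was called in treated libraries alone, where 4.22% of all genes were, and 1 in untreated libraries alone, where 0.419% of all genes were. In B16F10, 0 were called in treated libraries alone (0.228% of all genes) and 1 in untreated libraries alone (0.0684%). Taking only genes with no call in the 3 controls, 1 of 28 (3.57%) was called in all treated 4T1 libraries, against 926 of 9325 (9.93%) over all genes, and 0 of 36 against 50 of 10777 (0.464%) in B16F10. Over both lines, the exact permutation test (two-sided, labels permuted within lines, smallest possible p 0.005) with Benjamini-Hochberg adjustment called 0 of 21938 genes, that is 0%, and so none of the 66. At an unadjusted p below 0.05 it called 16 genes, none of them among the 66, where the smallest p was 0.1. A gene with the same call in every library of 1 line cannot fall below 0.1 in this test. That was so for Cfap99, Cfap157 and Cfap97d2, so their absence from the 16 is not read as a result. With a smallest possible p of 0.005, adjustment over 21938 genes can pass a gene only where very many genes reach that p together. The adjusted test could therefore not call single genes here, and no conclusion is drawn from its 0. Within a line the smallest p that 3 against 3 libraries allow is 0.1, so the calls in 1 line are descriptions.

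Cfap99 was the gene called in treated 4T1 alone. Its fold enrichment was 5.57, 5.37 and 5.24 in the 3 treated libraries, and it had no peak in the other 9. The peaks were 934 to 1450 bp wide, stood at percentile 38.9 to 47.1 of their libraries by −log10 q, and had their summits at -208, -209 and -361 bp from the 5′ end at 34288600 on chromosome 5. The nearest peak in untreated 4T1 lay 4860 to 6499 bp away. Zfyve28, a zinc finger gene on the opposite strand with its 5′ end 151 bp from that of Cfap99, was called in the same 3 libraries, and the summits lay past that 5′ end, within Zfyve28, so the peak cannot be assigned to Cfap99. With 6.05 CpG per 100 bp this promoter stood in the most CpG-rich of 5 equal classes of all genes. With equal numbers of peaks in all 12 libraries it was called in none of the arms alone.

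Cfap157, a gene needed for sperm motility, was the reverse case in 4T1. It was called in untreated 4T1 with fold enrichment of 5.31, 4.85 and 5.49 and in none of the 3 treated libraries, whose nearest peaks lay 2951 to 3933 bp away. In B16F10 it was called in all 6, at 8.97, 9.90 and 12.2 without and 7.34, 8.07 and 7.48 with DAC. Its summits lay at -32 to -73 bp from the 5′ end at 32784428 on chromosome 2, in the CpG-poor stretch shown above. Cfap97d2 was called in untreated B16F10 alone, at 9.81, 9.78 and 6.17, with the nearest treated peaks 2437 to 2867 bp away. Its 5′ end is at 13705889 on chromosome 8, and the summits lay from -37 to 19 bp of it. The Cfap157 call in 4T1 was lost with equal numbers of peaks in all 12 libraries, whereas that of Cfap97d2 was kept.

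Calls in 2 of 3 treated libraries and 0 of 3 controls were found for 3 genes in 4T1 (1.5% of all genes), Cfap53, Cfap69 and Dnah10, and for 1 in B16F10 (0.465% of all genes), Rsph10b. Cfap53 is a laterality gene whose protein lies inside the doublets. Its 2 peaks had fold enrichment of 2.55 and 2.49, those of Cfap69 4.21 and 3.33, those of Dnah10 2.51 and 2.58, and those of Rsph10b 3.33 and 4.15. For Cfap53 and Cfap69 some annotated start was called in all 6 libraries of 4T1, so with every start counted neither held this pattern. In 4T1 the 3 genes lacked a peak in the same library, DAC replicate 3, which had the fewest peaks of the treated 4T1 lists. Without that library 4 of the 66 genes were called in treated 4T1 alone, and 4.91% of all genes. Without DAC replicate 2 of 4T1, 2 genes were called in untreated 4T1 alone, Cfap157 and Dnah17.

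Promoter CpG density differed between genes with and without peaks. The median over the 66 windows was 2.47 CpG per 100 bp, against 3.05 over all genes. The 22 genes called in all libraries had a median of 4.40 (all genes so called, 4.55), the 17 called in none 1.60 (all genes, 0.80) and the 27 others 2.20 (all genes, 2.80). With all genes in 5 equal classes from CpG-poor to CpG-rich, the 66 fell 4, 23, 24, 11 and 4. Of the 28 without an untreated 4T1 call, 3, 16, 8, 0 and 1 fell in these classes. The share of all such genes that was called in treated 4T1 alone was 1.07%, 3.91%, 15.1%, 36.2% and 66.6% from the lowest to the highest class. Cfap99 was the 1 gene of these 28 in the highest class. Whether CpG density accounts for the count in the group was not tested.

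**Figure D4:**
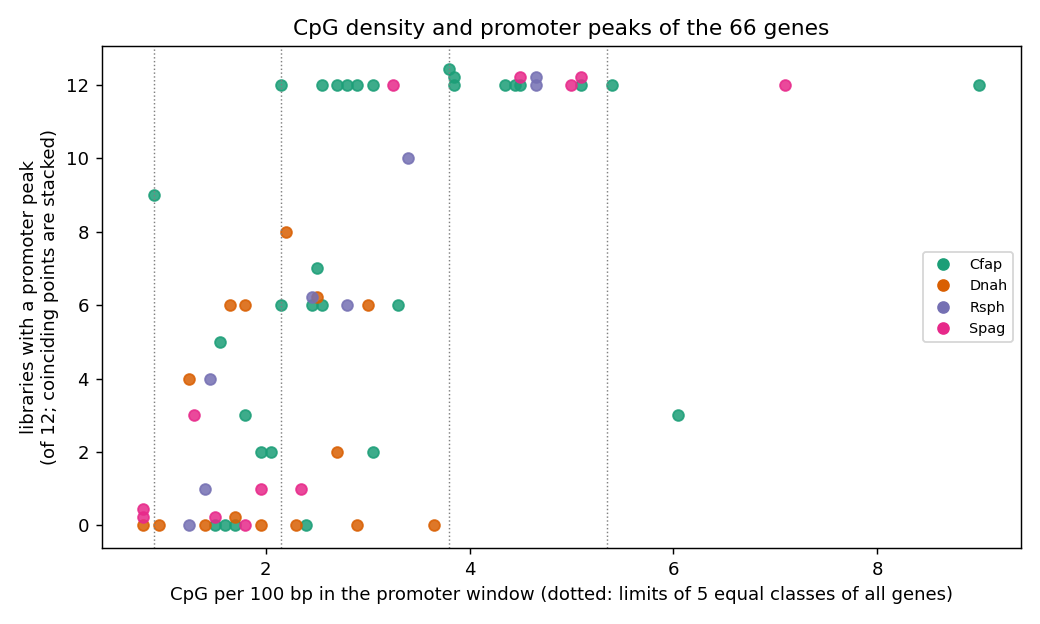
Number of libraries with a promoter peak (of 12) against CpG per 100 bp in the promoter window for each of the 66 genes, coloured by family, with dotted lines at the limits of 5 equal classes of all genes. The genes called in no library lie between 0.80 and 3.65 CpG per 100 bp, those called in all 12 between 2.15 and 9.0, and Cfap99 stands alone at 6.05 with 3 libraries.

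The sequence near the 5′ ends held a further common feature. In the 250 bases before and 50 after the 5′ end, on either strand, GTTGCC stood in 20 of the 66 windows (30.3%) and in 12% of those of all genes. It was found in 5 of the 22 promoters called in all libraries, 5 of the 17 called in none and 10 of the 27 others. GTTGC facing GCAAC at 1 to 4 bases, an arrangement chosen after these sequences had been seen, stood in 6 (9.09%), those of Cfap44, Cfap54, Cfap97d1, Dnah6, Dnah7a and Dnah7c, and in 92 windows of all genes (0.419%). Dnah7a and Dnah7c are copies and count as 1 sequence. The GTTNCC and GGNAAC pair at 0 to 3 bases stood in 1 (1.52%), that of Cfap97d1, against 0.725%. CCAAT stood in 30.3% against 39.0%, the E2F motif TCCCGC in 16.7% against 24.0%, CACGTG in 6.06% against 7.75%, GGGCGG in 43.9% against 43.0%, the forkhead motif GTAAACA in 4.55% against 3.05% and TGACGTCA in 3.03% against 2.43%. A match describes letters in the window and not binding, and windows of several motifs overlap.

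The genes with the facing pair in the window of 250 bases before and 50 after the 5′ end differed in their calls. None of them was called in 1 arm alone or in B16F10 alone. Dnah7b, which was called in B16F10 alone, holds the pair in the stretch shown above, just upstream of its summits. The summits lay 548 to 568 bp downstream of the 5′ end, and the pair also lies outside that window. Cfap97d1 was called in all 12 libraries, with fold enrichment of 9.22 to 12.4. Dnah6 was called in the 6 libraries of 4T1 and Cfap54 in those 6 and in 1 of B16F10. Cfap44, which links the dynein motor domain to the doublet, was called in 1 untreated and 1 treated 4T1 library, at 4.25 and 3.15. Dnah7a and Dnah7c were called in none.

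The regulators of the programme were partly open. Foxj1, Rfx2 and Rfx3 were called in all 12 libraries, with fold enrichment of 8.69 to 16.5 for Foxj1. Mcidas was called in 6 of 6 libraries of 4T1, at 4.51, 5.11 and 5.10 without and 4.69, 4.97 and 5.19 with DAC, and in 0 of 6 of B16F10. Gmnc, which acts above it, was called in no library at its 5′ end, although another annotated start was called in 2 untreated and 2 treated 4T1 libraries. Trp73, a p53 family gene that drives multiciliation, was called in untreated 4T1 alone, at 2.65, 2.98 and 2.48. These were weak peaks, the lowest of them at percentile 7.22 of its library by −log10 q. Over the 13 regulators, 8 were called in all libraries, as were 45.8% of all genes.

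Of 102 other genes of the pathway, 63 were called in all 12 libraries and 16 in none, where 45.8% and 32.3% of all genes were. All 22 intraflagellar transport genes and 8 of 9 subunits of cytoplasmic dynein 1, which serve cells without motile cilia, were called in all 12 libraries. Of the 9 axonemal intermediate and light chains 4 were called in all and 3 in none, of the 10 arm assembly factors 4 and 2, of 6 docking and ruler genes 3 and 1, of 9 nexin-dynein regulatory genes 6 and 2, of 11 partners of the central pair and spokes 4 and 2, and of 13 tektins and inner proteins 4 and 4. In treated 4T1 alone 6 of the 102 were called (4.22% of all genes), among them the arm assembly factors Lrrc6 and Zmynd10, the docking gene Ccdc114, Spef2 and Ak7. Of these, Ccdc114 and Spef2 were also called in every B16F10 library. Their lowest percentiles by −log10 q in treated 4T1 were 62.6 for Ccdc114 and 30.6 for Spef2. Those of Lrrc6, Zmynd10 and Ak7 were lower, at 13.8, 7.06 and 4.32. For Zmynd10 the call in treated 4T1 alone held at its 5′ end only, as another annotated start was called in 3 of 3 untreated 4T1 libraries. In untreated 4T1 alone 2 were called (0.419% of all genes), Trp73 and Nme5, of which Nme5 was also called in every B16F10 library. In B16F10 the counts were 2 in treated libraries alone (0.228% of all genes), among them Ak7, and 0 in untreated libraries alone (0.0684%).

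Ak7, an adenylate kinase of the axoneme, was called in treated libraries alone in both lines. It had fold enrichment of 8.19, 8.46 and 7.08 in treated B16F10 and 3.63, 3.60 and 2.87 in treated 4T1. It had no peak at its 5′ end in the 6 untreated libraries, although another start was called in 1 untreated 4T1 library. By the exact permutation test it had p = 0.005, the smallest that the design allows, and an adjusted p of 1 over all genes (Benjamini-Hochberg). In 4T1 the call was lost with equal numbers of peaks within the line, with equal numbers over all 12 libraries and with fold enrichment of at least 5, where no library of either arm was called, and it no longer held in 3 of 3 against 0 with every start, an overlap of 200 bp or −log10 q of at least 5.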

How the data were processed

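Each library came with 1 peak list in the narrowPeak layout, called on that library alone. Per the submitters' processing notes, which give no versions or roles, the build was mm10 and the tools included Bowtie2, MACS2, Picard, DiffBind, ChIPseeker, FastQC and MultiQC. The fold enrichment of a peak (a ratio to the background of its own library), its −log10 p-value, its −log10 q-value, its score and its summit offset are the authors' deposited values. The lists hold no read counts, so no counting interval is given.

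Peaks on the 21 assembled chromosomes were overlapped (at least 1 bp) with the 5′ end of every protein-coding gene of GENCODE release M21 plus and minus 1000 bp, with Python 3.11.15 and numpy 2.4.6. Where several peaks overlapped, the strongest by −log10 q was used. Shares of libraries called were compared between arms by exact two-sided permutation of labels within lines (400 relabellings), with Benjamini-Hochberg adjustment over 21938 genes, and the test was checked on simulated data. Same-numbered libraries did not deviate together (correlations of deviations over all genes from -0.029 to 0.036), so the numbers were not used as pairs. CpG and motifs were counted on RefSeq GRCm38.p6.

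The members and the gene lists were chosen with earlier results of these data known, and the groups by role and the facing GTTGC pair after the values and sequences were seen. Described singly are genes called in 1 arm alone, in 6 of 6 libraries of 1 line and 0 of 6 of the other, the 5 of highest median fold enrichment among those called in all libraries, those in 2 of 3 against 0, pathway genes called in 1 arm alone (at most 15 per line) and 5 regulators (1 such gene is left out); the 3 Dnah7 copies and genes named as examples were added after their values were seen. Markers of leukocytes had a promoter peak at 1 to 2 of 7, and of fibroblasts and endothelium at 1 to 2 of 6. Alternatives were other promoter widths, every start, summit or 200 bp overlap, stricter q or fold, equal numbers of peaks, 2 of 3 libraries, a replicate block and each library left out. Equal peaks over all 12 libraries and the alternatives for calls in 1 line were added after the data were seen.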

Additional observations from a re-analysis of the deposited data

How the results depend on the processing

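The mean number of the 66 genes called per treated 4T1 library (39) was 36 with a window of 500 bp on either side, 43.3 with every annotated start, 36.7 with the summit inside the window, 35.3 with an overlap of 200 bp, 36 with −log10 q of at least 5, 30 with fold enrichment of at least 5, 33.3 with equal peaks within the line and 26.7 with equal peaks over all 12 libraries. For untreated 4T1 (35.7) it was 33 with 500 bp, 37.3 with 2000 bp, 40.3 with every start, 33.7 with the summit inside, 33 with the 200 bp overlap, 32 with the fold limit and 26.3 with equal peaks over all libraries. For treated B16F10 (27.7) it was 25, 30.7 and 31.7 with 500 bp, 2000 bp and every start, 26 with the q limit and 25.7 with the fold limit, and for untreated B16F10 (28) 30.3 with 2000 bp and 31 with every start. Leaving out 1 library gave 38.5 to 40, 35 to 36, 27 to 28.5 and 27 to 28.5 in that order. Calls in treated 4T1 alone (1) numbered 2 with every start (Cfap99 and Spag16), 2 with the 200 bp overlap (Cfap54 and Cfap99), 4 with 2 of 3 libraries, 0 with equal peaks over all libraries and 1 to 4 with a library left out. Calls in untreated 4T1 alone (1) numbered 2 with the 200 bp overlap and with equal peaks within the line (Cfap157 and Dnah17), 2 with the fold limit (Cfap100 and Rsph9), 0 with equal peaks over all libraries and 1 to 2 with a library left out. Calls in treated B16F10 alone (0) numbered 1 with 2 of 3 libraries and 0 to 1 with a library left out, Cfap73 without control replicate 1 and Rsph10b without DAC replicate 1. Calls in 1 line alone each became 5 with equal peaks over all libraries, and with a library left out ranged from 9 to 10 (untreated 4T1), 3 to 3 (untreated B16F10), 10 to 13 (treated 4T1) and 3 to 4 (treated B16F10). With 2000 bp on either side they numbered 8 in untreated and 9 in treated 4T1, with Dnah6 lost from both. With 500 bp they numbered 7 and 9, and with the summit inside the window 7 and 8. In both of these settings Cfap45 and Dnah8 were lost from both arms. With every annotated start they numbered 11 and 11. With the replicate block, in which labels were exchanged within pairs of equal number, the exact permutation test called 0 genes after adjustment and 6 at an unadjusted p below 0.05, none of them among the 66 (smallest p 0.25). The smallest p that this block allows is 0.03125, so its adjusted test could not call single genes either. No single result changed its sign, but the order of the treated and untreated 4T1 means turned round with the fold limit and with equal peaks within the line (33.3 against 35.7). The cause of these differences was not tested, and the depth of the libraries is not known.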
